A study of Mus musculus with 150 samples.

Results

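Cap1, Gnb1, Ssr1, Ocel1 and Fv1 are 5 genes picked for a higher signal in mice of strain 129 than in mice of strain B6. All 8 probe sets that the platform annotation gives to them are described, of 12422 probe sets for 8251 genes. Cap1, Ocel1 and Fv1 had 1 probe set each, Ssr1 had 2 and Gnb1 had 3, and each probe set is kept apart. The 129 and B6 arrays chose the genes, so the difference between those strains is described without a test. Tests are given for C3H, DBA and AJ, whose values the choice did not use. Tests between tissues use the 129 and B6 arrays that chose the genes, with strain averaged or fitted as a term. They are not independent of the choice where the strain difference varies with tissue. Total RNA of wild-type inbred mice, called adult in the series title and with no treatment named, was hybridized as biotin-labelled target to 150 one-colour Affymetrix arrays. Of 100 neural arrays, over 24 tissues, 44 were of 129, 9 of DBA and 47 of B6. The 50 body arrays covered 10 tissues with 1 array each of 129, DBA, C3H, AJ and B6. Strain names are those of the labels, with BL6 read as B6, and the labels name no substrain, sex or age. Many neural titles name several mice, so a neural array can be a pool, and mouse codes recur across tissues. The labels do not say which arrays hold separate animals, so p-values measure the spread between these samples, which may be technical.

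The 5 genes act in different parts of the cell. Cap1 encodes a cyclase-associated protein that works with cofilin to recycle actin monomers from ageing filaments. Gnb1 encodes a beta subunit of heterotrimeric G proteins, which pairs with a gamma subunit to relay signals from receptors on the cell surface, and it is the beta subunit of transducin in rod photoreceptors. Ssr1 encodes the alpha subunit of the translocon-associated protein complex, which helps new secretory proteins enter the endoplasmic reticulum. Ocel1 encodes a protein with an occludin and ELL domain whose function is little known. Fv1 encodes a mouse restriction factor, derived from a retroviral capsid gene, that blocks infection by murine leukaemia viruses, and inbred strains are known to carry different alleles of it.

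Values are deposited intensities on a linear scale, and differences are on the log2 scale after values below the floor of 10.4 were raised to it. A pair of arrays, labelled 129 hippocampus and DBA perirhinal cortex, held identical values, and both were left out, so that 148 arrays were compared, 98 of them neural. Of 44 marker genes on the arrays, 40 were highest in the tissue they mark, and each of 17 tissues checked was led by at least 1 of its markers. Each body array was also set against strain profiles of 200 probe sets that left out the 5 genes. By that profile 44 of 50 body arrays lay nearest to their own label and 6 did not. The libraries labelled C3H spleen, C3H liver and C3H brown adipose tissue lay nearest to DBA, those labelled DBA spleen and DBA liver nearest to C3H, and the one labelled C3H white adipose tissue nearest to B6. Calls of the 5 genes among C3H, DBA and AJ are therefore given with and without these 6 arrays, while geometric means are over all arrays. In these tissues, fewer cells of a type and less RNA per cell cannot be told apart. A probe set reads the level of a transcript together with the match of its probes to a strain's sequence, and the 2 cannot be told apart between strains here.

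The promoter windows of Cap1 and Gnb1 are shown because both genes were low in B6 alone and followed each other most closely over the body arrays. Those of Ocel1 and Ssr1 are shown because these genes differed among the strains that did not choose them. Each window runs from 250 bases before to 50 bases after the gene's start, 5′ to 3′, in RefSeq's GRCm38.p6 assembly, which is of strain C57BL/6J. Capitals mark every match, on either strand, to GGGCGG (the GC box), to CCAAT (the box named for it), to CACGTG (the E box) or to TATAAA (the TATA box). The Cap1 window lies at chr4:122886027-122886326, minus strand, the Gnb1 window at chr4:155491111-155491410, plus strand, the Ssr1 window at chr13:37994159-37994458, minus strand, and the Ocel1 window at chr8:71371048-71371347, plus strand.
Cap1: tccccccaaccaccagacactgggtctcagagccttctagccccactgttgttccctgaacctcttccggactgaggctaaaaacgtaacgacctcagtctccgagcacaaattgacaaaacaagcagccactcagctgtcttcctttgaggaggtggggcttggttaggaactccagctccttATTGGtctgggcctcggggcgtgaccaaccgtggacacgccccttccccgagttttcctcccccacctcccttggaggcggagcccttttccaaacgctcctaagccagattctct
Gnb1: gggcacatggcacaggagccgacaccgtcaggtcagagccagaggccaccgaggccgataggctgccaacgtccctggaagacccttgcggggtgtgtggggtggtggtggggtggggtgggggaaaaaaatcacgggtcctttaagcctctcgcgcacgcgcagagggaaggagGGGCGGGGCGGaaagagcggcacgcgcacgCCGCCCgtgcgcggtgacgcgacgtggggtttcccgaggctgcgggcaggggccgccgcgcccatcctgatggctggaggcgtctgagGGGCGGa
Ssr1: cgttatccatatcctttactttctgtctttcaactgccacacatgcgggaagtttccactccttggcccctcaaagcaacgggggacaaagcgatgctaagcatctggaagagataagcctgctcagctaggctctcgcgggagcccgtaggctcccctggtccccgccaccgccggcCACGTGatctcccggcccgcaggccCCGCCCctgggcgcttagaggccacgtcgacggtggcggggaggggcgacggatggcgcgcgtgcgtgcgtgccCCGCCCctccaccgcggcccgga
Ocel1: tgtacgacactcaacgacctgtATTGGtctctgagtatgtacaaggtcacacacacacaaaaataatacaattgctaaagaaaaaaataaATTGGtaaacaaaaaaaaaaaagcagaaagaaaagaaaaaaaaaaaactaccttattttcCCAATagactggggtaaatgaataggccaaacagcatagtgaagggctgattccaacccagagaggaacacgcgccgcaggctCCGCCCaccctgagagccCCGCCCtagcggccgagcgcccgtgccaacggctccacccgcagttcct
The Gnb1 window was 70.3% G and C and held 4 GC boxes, a pair of which overlap, and the Ssr1 window was 66.7% G and C with 2 GC boxes and 1 E box. The Cap1 window was 57% G and C with 1 CCAAT box, and the Ocel1 window was 46% with 3 CCAAT boxes and 2 GC boxes. None of the 4 windows held a TATA box. Over 32851 promoter windows of this length, 35.7% held a GC box, 37.4% a CCAAT box, 7.15% an E box and 13.6% a TATA box. No motif was shared by all 4 windows. The matching sequences of the other strains were not analysed here.

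All 5 genes had a probe set with more signal in 129 than in B6 in every one of the 20 neural tissues with both strains, and the sizes ranged widely. Of the 8 probe sets, 7 met the rule used for all probe sets in neural tissue (1.5-fold and a limma adjusted p of 0.05), which 0.692% of 8093 tested probe sets met in the same direction. In the 10 body tissues 6 of 8 met it, against 1.28% of 8921 probe sets. In either direction 2.48% of all probe sets met it in neural and 3.58% in body tissue. All 8 passed the filter on dim values, and nothing follows from these shares, since the genes were picked on this difference. The exceptions were Ssr1 probe set 94511_at in both kinds of tissue and Fv1 in body tissue. Over all probe sets called in body tissue, 35.7% were higher in 129, and 48.5% after quantile normalization. Counts of tissues without overlap, given below, rest on the values that picked the genes. Their share over all probe sets was not computed, so nothing follows from them either.

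**Figure D1:**
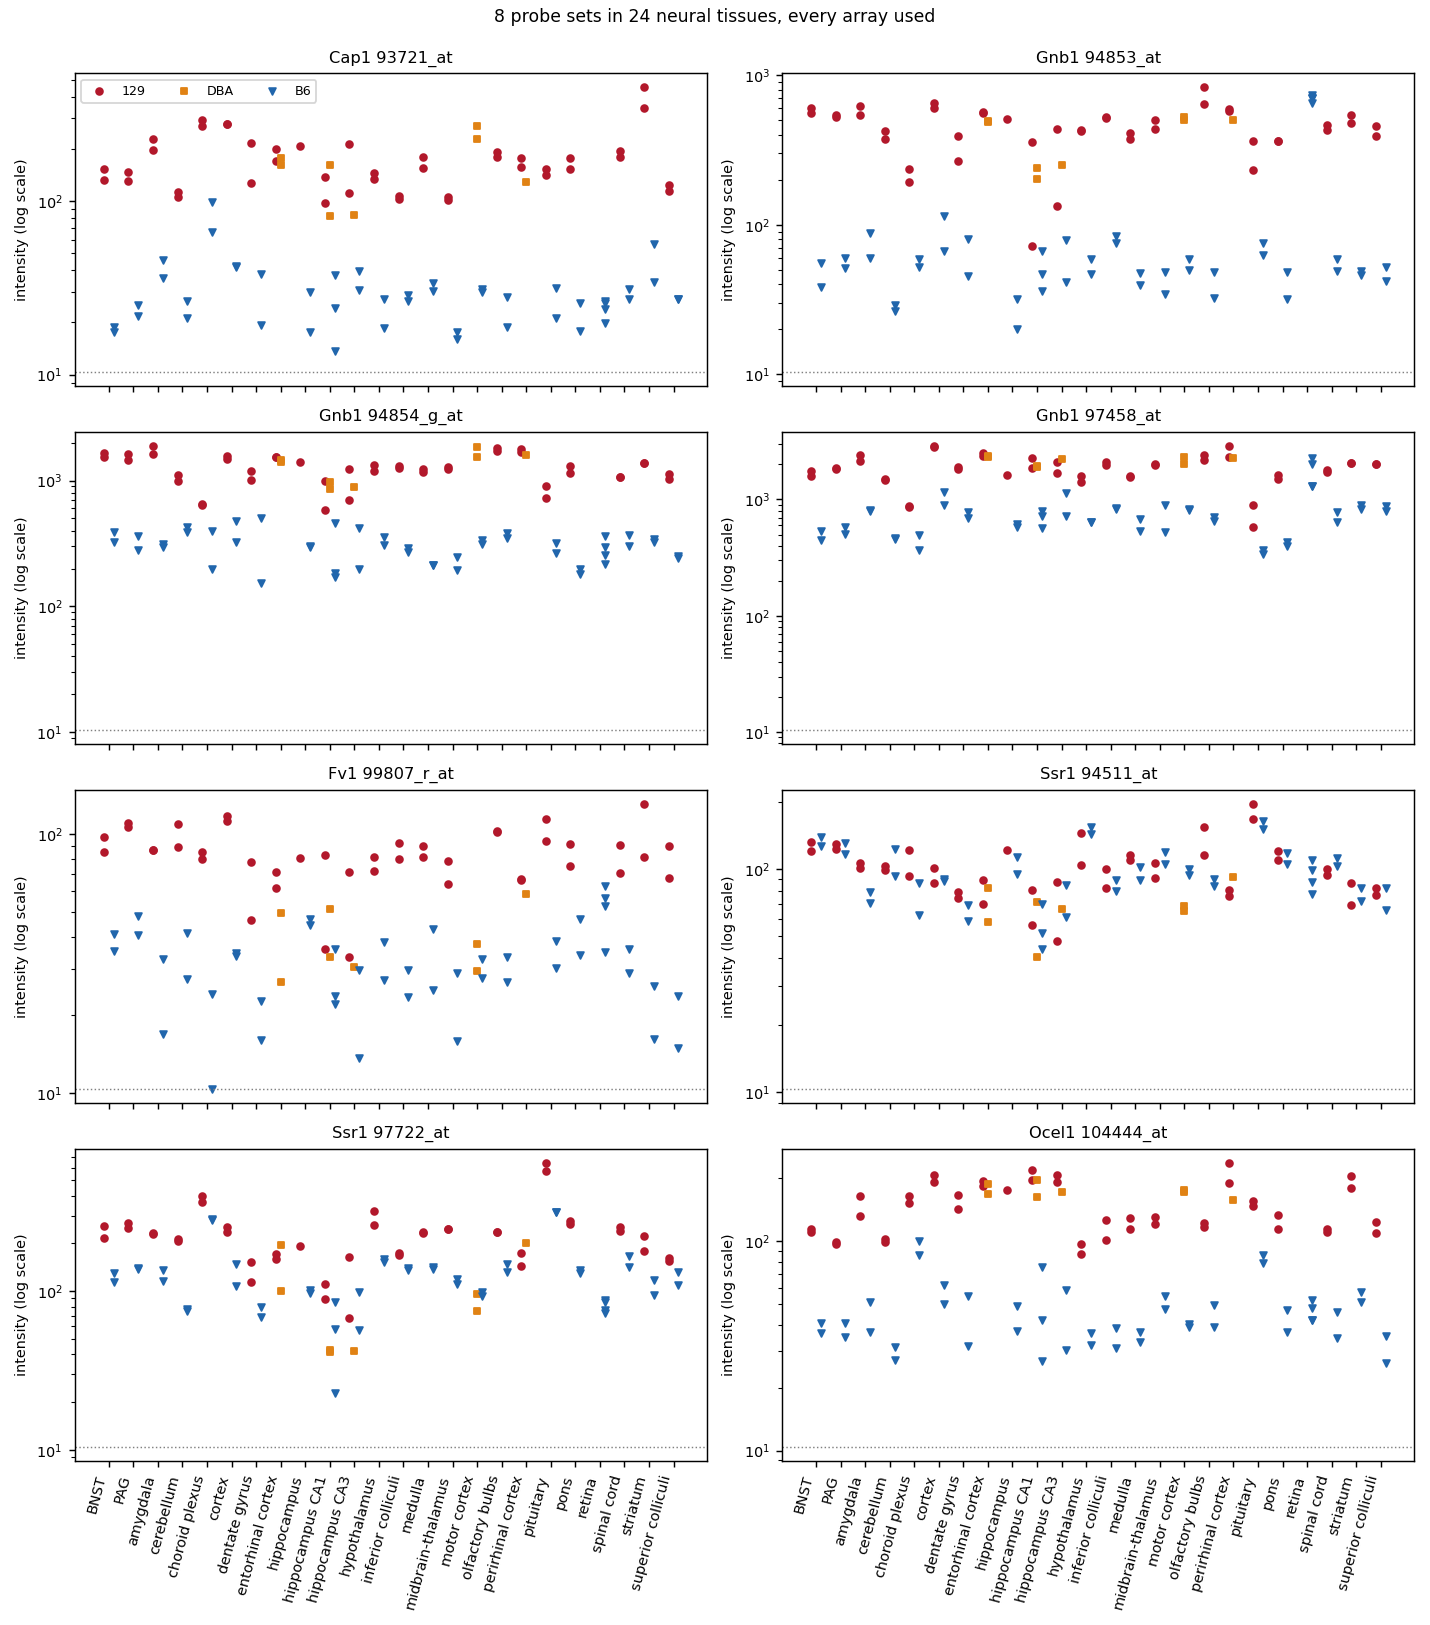
Deposited intensity (log scale, values below the dotted floor of 10.4 drawn at it) of the 8 probe sets on every neural array used, by tissue along the x axis; circles are 129, squares DBA and triangles B6. The 129 and B6 arrays of a tissue stand apart for Cap1, Gnb1 and Ocel1 outside retina, which has B6 arrays only, while for Ssr1 94511_at they mix.

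Cap1 was several times brighter in 129 throughout the brain and body. In the 20 neural tissues its intensity ran from 97.3 to 451 with a median of 153 on the 39 arrays of 129, against 13.6 to 99.1 with a median of 27.4 on the 41 arrays of B6. Striatum, the brightest tissue in 129, had 451 and 345 in 129 and 56.5 and 34.1 in B6. Within each of the 20 tissues every 129 array was above every B6 array. The mean log2 difference was 2.54 ± 0.39 (SD, n = 20 tissues), or 5.83-fold, and the tissues ran from 3.47-fold in choroid plexus to 9.07-fold in hippocampus. In the 10 body tissues the log2 difference was 2.67 ± 0.91 (SD, n = 10 tissues), or 6.37-fold. It was smallest in muscle, at 53.5 in 129 against 24.4 in B6, while testes had 207 in 129 against 14.04 in B6. White adipose tissue had 145 in 129 against 9.60 in B6, below the floor, so that its difference is at least 13.9-fold and the 2 tissues cannot be ranked. The body values of B6 lay close to the floor, with 1 of 10 below it. With a floor at the 40th percentile the body difference was 1.73.

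Gnb1 was higher in 129 on all 3 of its probe sets, by unequal amounts. On 94853_at the 129 arrays ran from 71.8 to 828 with a median of 435, against 20.2 to 115 with a median of 49.1 in B6. Olfactory bulbs had 828 and 647 in 129 and 32.4 and 48.1 in B6, and hippocampus had 512 on its remaining 129 array and 20.2 and 31.9 in B6. The strains did not overlap in any of the 20 tissues, but the 129 arrays of hippocampus CA1, at 355 and 71.8, and CA3, at 435 and 132, differed widely between themselves. The mean log2 difference on 94853_at was 3.04 ± 0.72 in neural tissue (SD, n = 20 tissues) and 0.86 ± 0.63 in body tissue (SD, n = 10 tissues).

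In neural tissue the other Gnb1 probe sets gave smaller differences. Probe set 97458_at ran from 582 to 2861 with a median of 1842 in 129 and from 341 to 1158 with a median of 651 in B6, a mean of 2.70-fold in neural tissue. It was 1.66-fold higher in body tissue, from 1.22-fold in brown adipose tissue to 3.12-fold in white adipose tissue. Probe set 94854_g_at ran from 587 to 1884 with a median of 1239.7 in 129 and from 154 to 503 with a median of 304 in B6. Its mean fold was 4.06 in neural and 2.22 in body tissue. On each of the 3 probe sets the mean difference was smaller in body than in neural tissue, and whether it differed between them was not tested.

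The 2 probe sets of Ssr1 disagreed. On 97722_at the neural arrays ran from 67.3 to 646 with a median of 235 in 129, against 22.7 to 318 with a median of 131 in B6. Pituitary, a secretory gland and the brightest neural tissue for it, had 572 and 646 in 129 and 316 and 318 in B6. Of 20 tissues, 19 showed no overlap, and CA3 was the exception, at 165 and 67.3 in 129 against 98.7 and 56.6 in B6. The mean log2 difference was 0.83 ± 0.27 in neural tissue (SD, n = 20 tissues) and 1.49 ± 0.38 in body tissue (SD, n = 10 tissues). On 94511_at the neural arrays ran from 47.8 to 195 with a median of 101 in 129 and from 43.7 to 164 with a median of 90.6 in B6, so that the ranges almost coincided. The mean log2 difference there was 0.12 ± 0.25 in neural tissue, with 129 higher in 14 of 20 tissues, and 0.11 ± 0.46 in body tissue, with 129 higher in 6 of 10. In 7 of the 20 neural tissues every 129 array was above every B6 array on this probe set too. Most tissues had 2 arrays per strain, so nothing is read from that count.

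Ocel1 differed between the strains by nearly the same factor in brain and body. Its neural arrays ran from 87.01 to 221 with a median of 129.8 in 129, against 26.3 to 101 with a median of 40.6 in B6, and no tissue showed an overlap. The mean fold was 3.13 in 20 neural tissues and 3.12 in 10 body tissues. The smallest neural difference was in choroid plexus, at 165 and 153 in 129 against 101 and 86.3 in B6, and the smallest body difference in testes, at 605 against 395. These were also the brightest tissues of their kind for Ocel1 in B6.

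For Fv1 the difference was less uniform in body tissue than in neural tissue. The neural arrays ran from 33.4 to 129.9 with a median of 85.1 in 129, against 7.34 to 48.2 with a median of 29.8 in B6. All 20 neural tissues were higher in 129, by 2.93-fold on average, and 19 showed no overlap. In CA1 the strains met, at 35.8 and 83.04 in 129 against 35.9, 22.1 and 23.6 in B6. In body tissue 7 of 10 tissues were higher in 129, and the mean log2 difference of 0.59 had an SD over tissues of 0.91. Spleen had 80.04 in 129 and 22.5 in B6, thymus had 115 and 41.4, and liver had 18.2 and 41.6. Heart had 139.7 in 129 and 48.7 in B6. The 129 array was thus 3.56 times as bright as the B6 array in spleen, 2.79 times in thymus and 2.87 times in heart, while the ratio was 0.972 in kidney, 0.956 in brown adipose tissue and 0.438 in liver. The kidney and brown adipose tissue differences, -0.04 and -0.06 on the log2 scale, lay within the SD of replicate neural arrays, 0.39. Each ratio rests on 1 array per strain, and the liver values were dim, so no reversal is read from them.

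**Figure D2:**
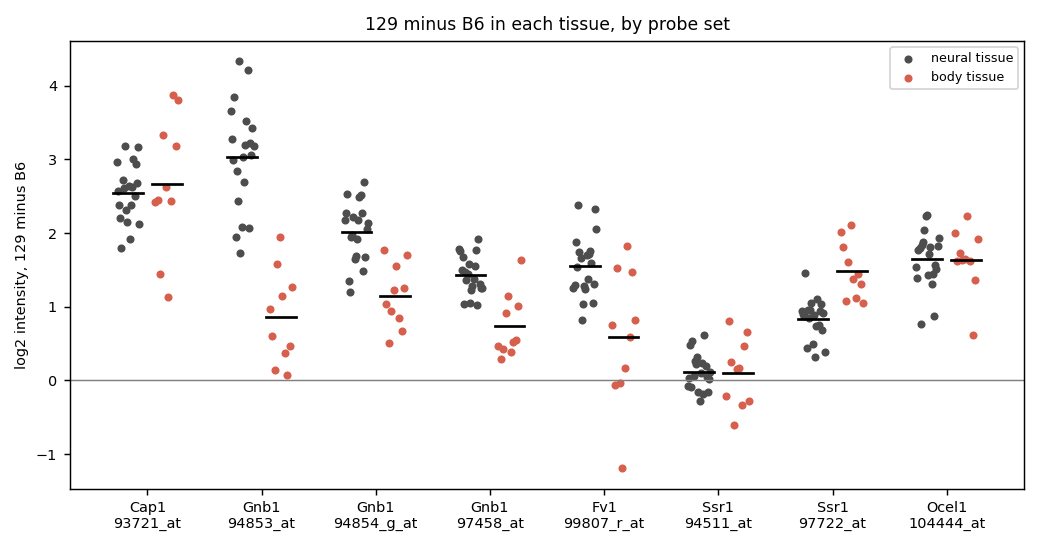
Log2 intensity of 129 minus B6 (y axis) for each probe set (x axis), with 1 point per tissue, 20 neural and 10 body, and a black line at each mean. Points of Cap1 and Ocel1 centre on like heights in neural and body tissue, those of Gnb1 94853_at centre at 3.04 and 0.86, and those of Ssr1 94511_at scatter around 0.

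The other strains, which had no part in the choice, placed the genes in different orders. For Cap1, B6 was the lowest of the 5 strains in 10 of 10 body tissues, and the geometric mean was 113 in 129, 115 in DBA, 85.7 in C3H and 123 in AJ, against 17.8 in B6. Spleen, for example, had 270.1 in 129, 335 in DBA, 242 in C3H and 307 in AJ, against 50.01 in B6. The lowest value outside B6 was on the array labelled C3H white adipose tissue, at 11.03, next to 9.60 in B6 and 145 in 129. That array lay nearest to B6 by the strain profile. Because these strains are set against the same B6 arrays, their distances from B6 share those arrays.

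Gnb1, like Cap1, was lowest in B6. On 94854_g_at the geometric mean was 274 in 129, 259.8 in DBA, 287 in C3H and 322 in AJ, against 123 in B6. On 97458_at it was 515, 559, 473 and 480.0 in the same strains, against 309.7 in B6. DBA and AJ were above B6 in 10 of 10 tissues on all 3 probe sets, and C3H in 9 of 10, where the exception was again white adipose tissue. On the array labelled C3H white adipose tissue, 97458_at stood at 209.8, next to 816 in AJ and 286 in B6.

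Ssr1 and Ocel1 split the strains in other ways. For Ssr1 97722_at the geometric mean was 288 in 129, 219.5 in C3H and 318 in AJ, and lower in DBA, at 124, and in B6, at 102. For Ocel1 it was 303 in 129, 287 in DBA and 232 in C3H, and lower in AJ, at 105, and in B6, at 97.4. DBA thus sat with B6 for Ssr1 and with 129 for Ocel1, and AJ the other way round. Without the 6 arrays Ssr1 97722_at moved from 1.21 to 1.02 times B6 in DBA and from 2.15 to 2.74 times B6 in C3H. Fv1 had geometric means of 50.6 in 129, 43.7 in DBA, 30.3 in C3H and 29.2 in AJ, against 33.7 in B6, and its SD over tissues was 0.66 to 1.29 on the log2 scale.

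**Figure D3:**
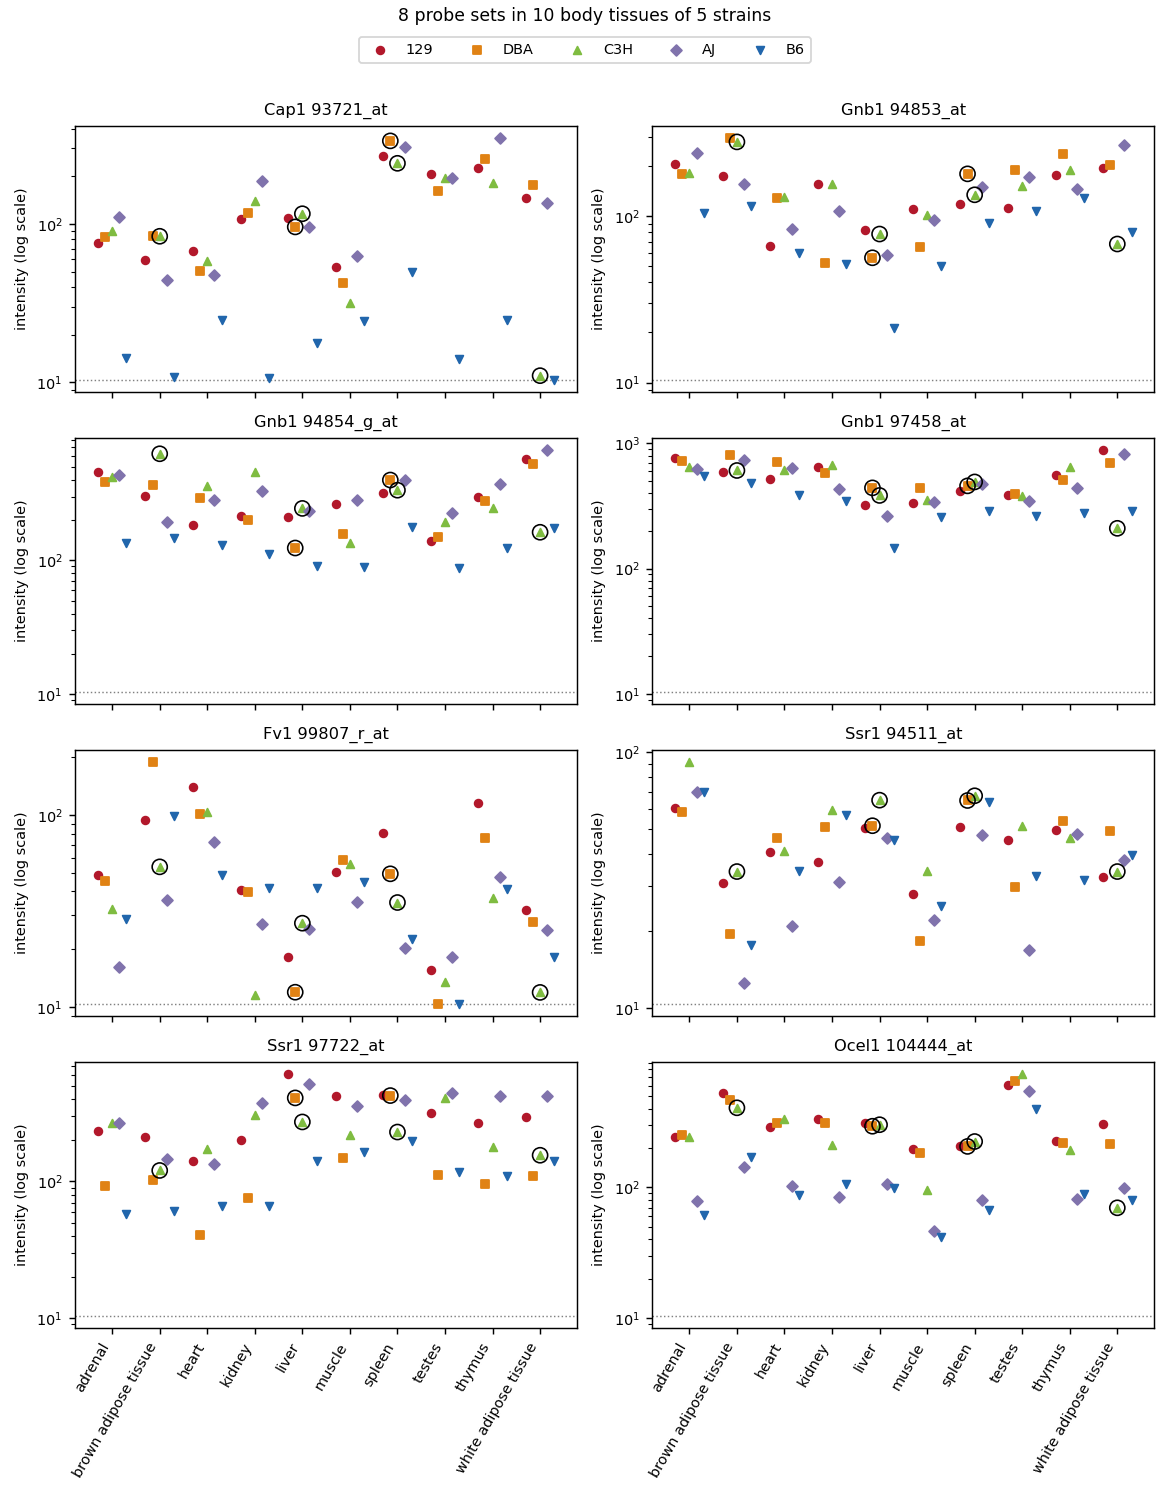
Deposited intensity (log scale, dotted line at the floor of 10.4) of the 8 probe sets in 10 body tissues, with 1 point per array for 129, DBA, C3H, AJ and B6; open black rings mark the 6 arrays nearest to another strain's profile. B6 is the lowest strain throughout for Cap1, AJ and B6 lie low for Ocel1, and DBA and B6 lie low for Ssr1 97722_at outside the ringed arrays.

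Ocel1 rose in DBA relative to AJ. The 10 DBA arrays ran from 182 to 647 with a median of 274, against 46.3 to 549.7 with a median of 91.2 on the 10 AJ arrays. DBA was higher in 10 of 10 tissues, from 1.18-fold in testes to 3.93-fold in muscle. The log2 difference was 1.45 ± 0.16 (standard error, limma adjusted p = 4.52e-08). From here on ± gives the standard error of limma's fit, not the SD over tissues used above. Of the 8 probe sets, 2 were called in this comparison, against 1.56% of 8921 tested. Over all probe sets called, 54.7% were higher in DBA, and 40.9% after quantile normalization.

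Ocel1 also rose in C3H relative to AJ, at 69.8 to 743 with a median of 234 on the C3H arrays, higher in 9 of 10 tissues. The log2 difference was 1.14 ± 0.16 (limma adjusted p = 5.64e-06), and 2 of 8 probe sets were called, against 0.751% of 8921. The exception was white adipose tissue, at 69.8 in C3H against 98.1 in AJ, and without that C3H array the difference was 1.31. Without the 6 arrays nearest to another profile Ocel1 was called in both comparisons, at 1.24 (limma adjusted p = 2.09e-06) for C3H and 1.44 (4.14e-09) for DBA against AJ. C3H minus DBA was -0.31 ± 0.16 (95% interval -0.63 to 0.02, limma adjusted p = 0.826). Over all probe sets called for C3H against AJ, 58.2% were higher in C3H, and 48.4% after quantile normalization.

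Ssr1 97722_at fell in DBA relative to AJ. Adrenal had 93.2 in DBA against 266 in AJ, kidney had 74.95 against 372, and thymus had 96.2 against 418. DBA was lower in 9 of 10 tissues, and the log2 difference was -1.36 ± 0.20 (limma adjusted p = 1.76e-05). The arrays labelled DBA liver and DBA spleen, both nearest to C3H by profile, had 408 and 424, while the other 8 DBA arrays stood at 40.5 to 148. Without the 6 arrays DBA was lower in 8 of 8 tissues and the difference was -1.62 (limma adjusted p = 1.79e-08).

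The comparison of C3H with DBA turned on those 6 arrays. With all arrays limma called 0 of the 8 probe sets and 0% of 8921, of which 545 had an unadjusted p under 0.05. Ssr1 97722_at stood at 0.82 ± 0.20 (limma adjusted p = 0.305). Without the 6 arrays, 83 of 8922 probe sets were called, Ssr1 97722_at among them, at 1.42 (limma adjusted p = 8.28e-06), with C3H higher in 6 of 6 tissues. Leaving out spleen alone gave 1.01 (limma adjusted p = 0.0122). C3H minus AJ had no call for this probe set, at -0.54 ± 0.20 (95% interval -0.95 to -0.12, limma adjusted p = 0.264). Without the 6 arrays it was -0.20 (limma adjusted p = 0.725).

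Ssr1 94511_at, the probe set with no call between 129 and B6, rose in C3H relative to AJ by 0.68 ± 0.15 (limma adjusted p = 0.0105), higher in 8 of 10 tissues. Brown adipose tissue had 34.2 in C3H against 12.6 in AJ, and testes had 51.5 against 16.9. The call held without the 6 arrays (0.72, limma adjusted p = 0.0442) but was lost under other settings: without testes the difference was 0.58 (limma adjusted p = 0.0532), without brown adipose tissue 0.60 (0.0535), with a floor at the 40th percentile 0.32 (0.126) and after quantile normalization 0.57 (0.117).

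Cap1, Gnb1 and Fv1 had no call among C3H, DBA and AJ. For Cap1 DBA minus AJ was -0.09 ± 0.30 (95% interval -0.70 to 0.52, limma adjusted p = 0.918), and C3H minus AJ was -0.52 ± 0.30 (-1.13 to 0.09), or -0.18 without the array labelled C3H white adipose tissue. For Gnb1 94853_at C3H minus AJ was 0.02 ± 0.20 (95% interval -0.38 to 0.42) and DBA minus AJ 0.02 ± 0.20 (-0.38 to 0.42). For Gnb1 94854_g_at C3H minus AJ was -0.17 ± 0.19 (-0.56 to 0.22) and DBA minus AJ -0.31 ± 0.19 (-0.70 to 0.08). Gnb1 97458_at differed by 0.22 ± 0.15 between DBA and AJ (95% interval -0.08 to 0.52). These intervals leave out a difference as large as that between 129 and B6 in the same tissues for Cap1 and for all 3 probe sets of Gnb1. Fv1 was 0.58 ± 0.26 in DBA against AJ (95% interval 0.07 to 1.10, limma adjusted p = 0.245), an interval that includes the body difference of 0.59 between 129 and B6. Without the 6 arrays these genes had no call either, with Cap1 at -0.27 for C3H minus AJ (limma adjusted p = 0.756) and Fv1 at 0.72 for DBA minus AJ (0.168).

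**Figure D4:**
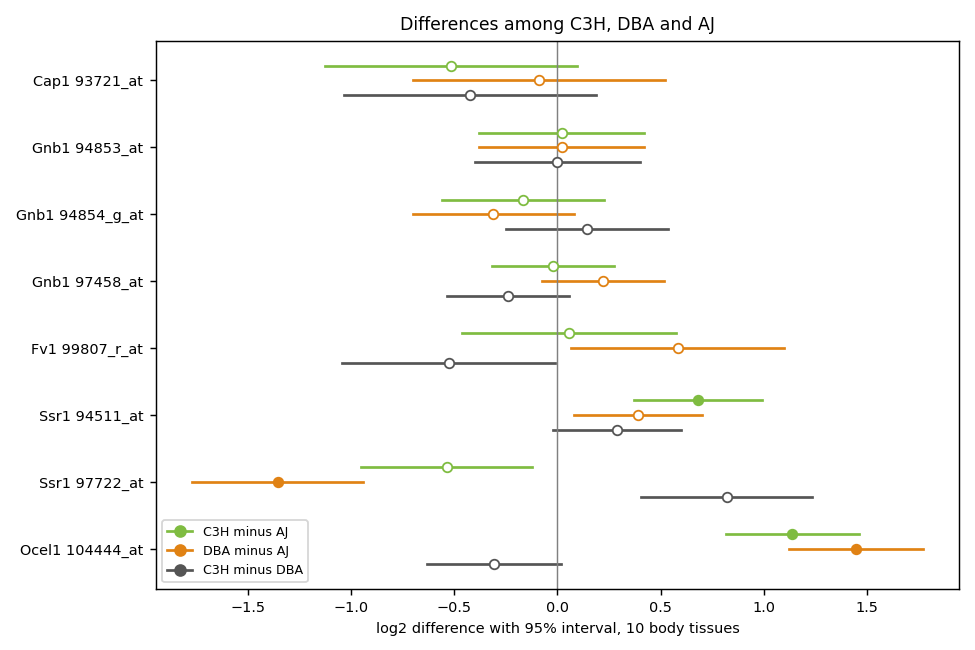
Log2 differences with 95% intervals (x axis) of the 8 probe sets (rows) for C3H minus AJ, DBA minus AJ and C3H minus DBA over 10 body tissues, all arrays; filled points passed the threshold. Filled points stand at 1.14 and 1.45 for Ocel1, at -1.36 for Ssr1 97722_at and at 0.68 for Ssr1 94511_at.

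The neural DBA arrays added single-array values, which have no test. In motor cortex Cap1 stood at 228 and 270.3 in DBA against 31.01 and 29.9 in B6, and Gnb1 94853_at at 526 and 502 against 58.98 and 49.7. Ocel1 stood there at 172 and 177 in DBA against 38.99 and 40.2 in B6. Ssr1 97722_at, at 75.5 and 95.5 in DBA against 98.4 and 92.7 in B6, and Fv1, at 37.5 and 29.5 against 33.01 and 27.9, lay close together or overlapped. In entorhinal cortex Fv1 had 26.9 and 49.6 in DBA against 61.8 and 71.4 in 129, so DBA was below 129 on both arrays. Ssr1 97722_at had 101 and 196 there in DBA against 171 and 159 in 129. The higher of these DBA arrays and the DBA perirhinal array, at 202, carry the same mouse code. Their differences from 129 correlated with the body difference of DBA from 129 at 0.746 and 0.702, below the 0.878 of the other entorhinal array. The DBA CA1 and CA3 arrays, set against B6 instead, gave 0.744 to 0.8435, with Ssr1 97722_at at 41.2 to 42.4. A low correlation thus also occurred with a low Ssr1 value, and a link between the 2 was not tested.

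Between neural and body tissue, averaged over 129 and B6 with equal weight, Gnb1 rose and Ocel1 fell. Gnb1 97458_at had a geometric mean of 1051 over 20 neural tissues against 399 over 10 body tissues, a log2 difference of 1.40 ± 0.17 (limma adjusted p = 4.04e-08). Gnb1 94854_g_at had 590.2 against 184, a difference of 1.69 ± 0.14 (limma adjusted p = 2.45e-11). The first of its probe sets, 94853_at, had 143 against 97.7, and its 0.55 ± 0.18 (limma adjusted p = 0.00964) missed the size limit of 1. On 94853_at the strains went opposite ways, so this average describes neither. Its median was 435 in neural against 137 in body tissue in 129, but 49.1 against 85.8 in B6. Of the 8 probe sets, 4 were called, against 27.6% of 9680 tested, and the median of all probe sets was -0.10.

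Ocel1 had a geometric mean of 77.4 in neural tissue against 172 in body tissue, a log2 difference of -1.15 ± 0.19 (limma adjusted p = 8.95e-06). Testes was its brightest tissue, and without it the difference was -0.98, just short of the size limit. Ssr1 94511_at rose in neural over body tissue, by 1.29 ± 0.16 (limma adjusted p = 9.39e-08), while 97722_at differed by -0.06 ± 0.23 (95% interval -0.53 to 0.40, limma adjusted p = 0.824). The 2 probe sets of Ssr1 thus also disagreed between tissues. Cap1, at 0.60 ± 0.21 (limma adjusted p = 0.0165), missed the size limit, and Fv1 differed by 0.23 ± 0.22 (95% interval -0.22 to 0.67, limma adjusted p = 0.396).

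Within the brain all 8 probe sets varied among the 20 tissues by limma's F test, as did 98.7% of 8093 probe sets. Tissues are listed below in order of level. Sorting 20 tissues makes the steps between neighbours small, so counts of steps cannot show whether levels change gradually. For Ssr1 97722_at the order ran from pituitary (439, mean of both strains) over choroid plexus (329) and hypothalamus (212) down to CA1 (69.3). Of its 19 steps between neighbouring tissues, 4 exceeded the SD of single replicate arrays, 0.30 on the log2 scale. The largest, 0.64, lay between choroid plexus and hypothalamus. The order differed on 94511_at, which ran from pituitary (169), hypothalamus (135) and BNST (129.5) down to CA1 (60.2), with choroid plexus at 13 of 20. On that probe set 1 of 19 steps exceeded the SD of replicate arrays, 0.22.

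Gnb1 97458_at ran from cortex (1703), amygdala (1347) and striatum (1335) down to choroid plexus (610.0) and pituitary (504). The step of 0.39 above choroid plexus was its largest, against an SD of 0.20, so that choroid plexus and pituitary closed the order. On 94853_at 0 of 19 steps exceeded its SD of 0.39, and its F test (limma adjusted p = 0.0269) was lost without cortex (0.109), amygdala (0.0591) or inferior colliculi (0.059), after quantile normalization (0.0657) and with no filter (0.0548). Cap1 ran from choroid plexus (151) and striatum (132) down to midbrain-thalamus (41.6), and 1 of 19 steps exceeded the SD of 0.32.

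Ocel1 ran from choroid plexus (122) and pituitary (112) down to cerebellum (54.3), and Fv1 from PAG (69.3) and cortex (62.6) down to CA3 (31.4). For neither did any of 19 neural steps exceed the SD of replicate arrays. In body tissue Ocel1 was led by testes (489) and brown adipose tissue (302), 0.70 apart on the log2 scale. Cap1 was led there by spleen (116) and thymus (74.9), and Ssr1 97722_at by liver (295) and spleen (290.3). Fv1 was led by brown adipose tissue (96.5) and heart (82.5), and testes (12.7) closed its order near the floor.

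Retina, sampled in B6 only, departed from the low Gnb1 signal of that strain on 2 of the 3 probe sets. On 94853_at the 4 retina arrays had 701, 654, 732 and 704, against 20.2 to 115 with a median of 49.3 on the other 43 B6 neural arrays. All 4 lay within the range of the 129 arrays of other tissues. On 97458_at retina had 1303, 1311, 2275 and 2032, above the highest of the other B6 arrays at 1158. On 94854_g_at it had 298, 255, 365 and 215, inside the B6 range of 154 to 503 with a median of 309. The retina values were singled out after they were seen and have no test, and there is no 129 retina to set beside them.

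**Figure D5:**
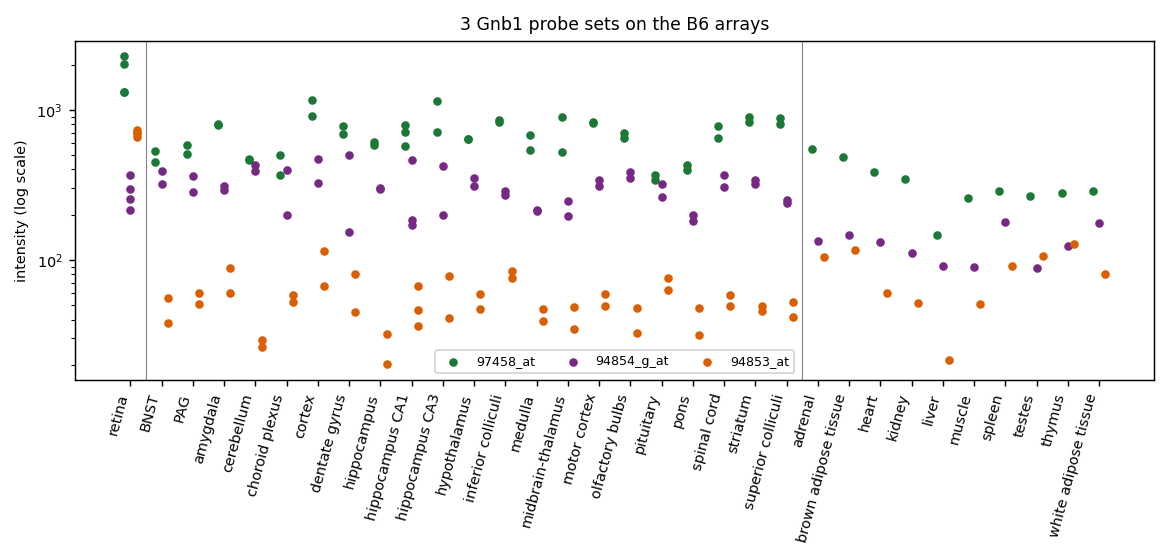
Deposited intensity (log scale) of the 3 Gnb1 probe sets on the B6 arrays, with retina at the left, other neural tissues in the middle and body tissues at the right. On 94853_at the retina arrays lie at 654 to 732 and the other B6 neural arrays at 20.2 to 115.

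The genes most like each member were ranked by Pearson r, as a description. Over the 50 body arrays with tissue means taken off, which share tissues and mouse codes, Cap1 was closest to Gnb1 94854_g_at (r = 0.861) and then to Glo1 (0.820) and Gfer (0.781), and Gnb1 97458_at was closest to Cap1 (0.781). Cap1, Gnb1 and Fv1 all lie on chromosome 4, and Fv1 was not among the 3 genes closest to Cap1 or to Gnb1. Cap1 and Gnb1 had both been picked on their low B6 signal, which 10 of these 50 arrays carry. Ocel1 was closest to Bcat2 (0.890), Fam32a (0.838), a gene of chromosome 8 like Ocel1, and Cox18 (0.810). Ssr1 97722_at was closest to Frg1 (0.789), Rnf13 (0.781) and Sec62 (0.726), which encodes a part of the protein import machinery of the endoplasmic reticulum. For Fv1 the highest r was 0.618, with Uba1y, followed by S1pr3 (0.612) and Ccrl2 (0.580).

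Over the 30 tissue means, Ssr1 97722_at was closest to Srpr (r = 0.767), the receptor of the signal recognition particle, and to Pdia3 (0.739) and Pdia6 (0.731), which help proteins fold in the endoplasmic reticulum. Its r with the other Ssr1 probe set was only 0.223. Gnb1 97458_at was closest to Vamp2 (0.951), a synaptic vesicle protein, Rtn3 (0.946) and Pmm1 (0.943). Cap1 was closest to Stk11ip (0.753), Smarcc1 (0.748) and Rcc2 (0.746), Ocel1 to Dhrsx (0.895), Hspa4 (0.859) and Etf1 (0.859), and Fv1 to Vps51 (0.781), Hccs (0.741) and Zfp930 (0.732).

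No tested chromosomal neighbour of the 5 genes was called higher in 129. Beside Fv1, Miip was lower in 129 on 1 of its 3 probe sets, at -0.59 ± 0.06 in neural tissue (limma adjusted p = 4.79e-14). In body tissue that probe set was at -0.57 ± 0.16 (limma adjusted p = 0.0229), with no call because it fell short of 1.5-fold. On the other side 2510039O18Rik was at 0.06 ± 0.05 and -0.25 ± 0.15. Beside Ssr1, Riok1 was lower in 129 in body tissue, at -0.71 ± 0.21 (limma adjusted p = 0.0304), and Rreb1 was at -0.31 ± 0.14. Mycl beside Cap1 was at -0.01 ± 0.07 in neural and -0.28 ± 0.28 in body tissue, and Nadk beside Gnb1 at 0.09 ± 0.07 and -0.41 ± 0.15. Use1 and Nr2f6, on either side of Ocel1, had no call. In neural tissue their differences were small and short of 1.5-fold. Use1 was at -0.19 ± 0.04 (limma adjusted p = 3.21e-05) and -0.18 ± 0.04 (8.59e-05), and Nr2f6 at 0.15 ± 0.03 (0.000317). Riok1 in neural tissue, at -0.28 ± 0.09 (limma adjusted p = 0.0117), was also short of that limit.

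Partners of Ssr1 in protein import were the one list with several members higher in 129. In body tissue 5 of 33 probe sets (23 genes) were higher and 1 lower, with a median of 0.03 against -0.02 over all probe sets. Sec62 was higher on 1 of its probe sets, by 1.16 ± 0.22 (limma adjusted p = 0.000484). Another Sec62 probe set of the list was not among the calls. Srpr was higher by 1.17 ± 0.29 (limma adjusted p = 0.00704), and Sec63, a partner of Sec62 in the translocon, by 0.88 ± 0.23 (0.0112). Ssr3, the gamma subunit of the complex that holds Ssr1, was higher on 2 probe sets. Its differences were 0.84 ± 0.18 (limma adjusted p = 0.00154) and 0.62 ± 0.20 (0.0479). Rpn2, of the oligosaccharyltransferase, was lower, at -0.65 ± 0.14 (0.00157). In body tissue 1.28% of all probe sets were higher and 2.3% lower. Leaving out 1 tissue at a time gave 4 to 6 calls in the list, with 4 without liver. In neural tissue 0 of 33 were called in limma's fit, where 2670 of 8093 probe sets had an unadjusted p under 0.05.

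The lists chosen around the other genes held few calls between 129 and B6. Of 27 probe sets for actin turnover, Arpc5, a subunit of the Arp2/3 complex, was lower in 129 in body tissue (-0.97 ± 0.17, limma adjusted p = 0.000116) and in neural tissue (-0.63 ± 0.07, 1.10e-11), where 1.79% of all probe sets were lower. Of the G protein subunits, Gna13 was lower in both, at -0.61 ± 0.15 (0.0068) of 28 probe sets in body tissue and -0.73 ± 0.06 (2.08e-17) of 32 in neural tissue. Of 16 probe sets for retrovirus restriction, 3 were lower in 129 in body tissue: Rsad2, an interferon-induced gene, at -1.09 ± 0.30 (0.0166), Trim21 at -0.84 ± 0.17 (0.000947) and Trim30a at -0.67 ± 0.18 (0.0159). The retrovirus list held 1 call without heart or with a floor at the 40th percentile, and 2 without adrenal, liver or muscle or with a floor at the 10th percentile. The Gna13 call in body tissue was lost without brown adipose tissue or spleen and after quantile normalization, and that list held 2 calls without white adipose tissue or with a floor at the 10th percentile. Of 13 probe sets for occludin, ELL and tight junctions, Ell2 was higher by 0.62 ± 0.17 (0.016), a call lost without any 1 of adrenal, brown adipose tissue, kidney, liver or testes and with a floor at the 10th or 40th percentile. Without white adipose tissue this list held 2 calls. None of 7 probe sets of blood and immune cells was called in that fit, where 2018 probe sets had an unadjusted p under 0.05, with a median of -0.43. Without brown adipose tissue 2 of them were lower in 129, and without white adipose tissue 1 was. Their part in the strain values was not tested.

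The same lists held more calls between neural and body tissue. Of 34 probe sets for G protein subunits, 12 were higher in neural tissue and 0 lower, against 14% higher and 13.5% lower over all probe sets, with a median of 0.50 against -0.10. Gng3, a gamma subunit, rose by 4.91 ± 0.29 (limma adjusted p = 2.27e-14) and Gnao1, the alpha subunit abundant in brain, by 3.98 ± 0.33 (2.60e-11) on the probe set with the largest of its 4 called differences. Of 33 probe sets for protein import 2 were higher and 5 lower, of 27 for actin turnover 3 and 2, of 14 for occludin, ELL and tight junctions 3 and 1, and of 17 for retrovirus restriction 2 and 6. Of 7 probe sets of blood and immune cells, 4 were lower in neural tissue, with a median of -1.77, and their part in the values of the 5 genes was not tested.

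Against AJ, the lists held at most 1 call each in C3H and in DBA. Over all 8921 probe sets, 0.751% were called in C3H and 1.56% in DBA, so nothing follows from single calls. Srp9, part of the signal recognition particle, was higher in C3H than in AJ by 1.07 ± 0.23 (limma adjusted p = 0.00567), 1 of 33 probe sets for protein import. In DBA, Ddost was higher than in AJ by 0.81 ± 0.19 (0.00891), Pfn1, which binds actin monomers, by 1.27 ± 0.32 (0.0174), and Laptm5, a marker of immune cells, was at -0.70 ± 0.19 (0.0385). The Pfn1 call was lost without kidney, muscle or testes, the Ddost call without kidney, and the Laptm5 call without the 6 arrays, without most single tissues, with no filter on dim probe sets and with the Gapdh ratio as a covariate. Laptm5 was 1 of 7 blood and immune probe sets tested, and the summed intensity of all 9 such probe sets ran from 256 to 20005 over DBA arrays and from 668 to 17375 over AJ arrays. Their part in the Ssr1 and Ocel1 differences was not tested. The G protein, tight junction and retrovirus lists had 0 calls in limma's fits of C3H against AJ and DBA against AJ, in which 998 and 1432 of 8921 probe sets had an unadjusted p under 0.05. For C3H minus DBA limma called 0 probe sets of any list with all arrays. In that comparison the protein import list held 3 calls without the 6 arrays, 2 higher and 1 lower in C3H, where 0.93% of all probe sets were called. It held 1 call without liver or without spleen.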

How the data were processed

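The deposited values are intensities per probe set on a linear scale. Neither the labels nor the headers name the authors' software or scaling, and the 75th percentile of an array ran from 165 to 184. Of 12488 probe sets, 66 controls were left out, and symbols came from the platform annotation. Before log2, a floor was set at the 20th percentile over all arrays (10.4), with no further scaling, and a probe set was tested if its mean in at least 1 tissue passed the median of all values. The fit covered the whole table, in limma 3.58.1 under R 4.3.3, using an intensity trend and Benjamini-Hochberg adjustment within a contrast. Strains were compared with tissue as a term at an adjusted p of 0.05 and 1.5-fold. Neural and body tissue were compared on tissue means, with a tissue as 1 unit, at the same adjusted p and a log2 size of 1. The fits were tested on simulated data. The genes most like a member were the 3 with the highest r to its brightest probe set. Chromosomal neighbours are the nearest genes with a probe set. Named list members are those called. The members and lists were chosen with earlier results of these data known. Gapdh, as 3' over 5' signal, a measure of RNA integrity, had a median of 0.930 in 129 and 0.919 in B6 over neural arrays. The alternatives varied the floor, scaling, filter, tissues, arrays, a block for the mouse code and this ratio as a covariate.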

Additional observations from a re-analysis of the deposited data

Results flagged for a closer look

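Retina entered no comparison, since it was sampled in B6 alone, and on 2 of the 8 probe sets all 4 of its arrays lay above every other B6 neural array. The median of Gnb1 94853_at was 702 in retina, and the highest of the other 43 arrays had 115. The median of Gnb1 97458_at was 1672 in retina, and the highest of the other arrays had 1158.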

How the results depend on the processing

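For C3H minus DBA in body tissue, 0 probe sets were called with all arrays, 83 without the 6 arrays nearest to another strain's profile (an alternative chosen after seeing the data), and 0 to 11 when 1 tissue was left out at a time, with 3 without liver and 11 without spleen. The counts of calls of the other 6 comparisons stayed within 1.5 times under every alternative run. Of 2160 recomputed values of single probe sets and list counts, 2110 were counted as unchanged, 38 moved further, 10 lost a call and 2 gained one. Unchanged values kept their side of the threshold, or a list count within 1.5 times. For members between 129 and B6, unchanged values moved by less than the spread over tissues. No called value changed sign. Sign changes of member values with no call, 38 in all, are counted among the 2110. Among 24 member values with no call, 9 changed sign under some alternative, so no direction is read from them. The cause of the lost calls was not tested. For 14 pairs of arrays the labels give a 129 and a B6 array of one tissue the same mouse code, with the strain name aside. In 8 tissues the deviations of such arrays from their group means correlated at -0.04 to 0.50, over 0.1 in 5 of 8, so these codes were not taken as pairs. With that code as a replicate block, fitted as a random block and chosen after seeing the data, limma called 326 probe sets between 129 and B6 in body tissue and 203 in neural tissue, against 319 and 201 without it, 65 for C3H and 135 for DBA against AJ, and 0 for C3H against DBA. With the full mouse code as a random block the consensus correlation was 0.04 over body and 0.15 over neural arrays. There is 1 array per strain and body tissue, so the spread in body tissue holds both replicate error and any strain difference that varies with tissue. Dim signals limit Fv1 and the B6 values of Cap1, where folds can be off by an unknown amount, which was not tested.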
